A study of Rattus norvegicus with 9 samples.

Results

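The receptors described here are those through which circulating hormones and vasoactive amines act on the artery wall. The set was defined by name as 9 genes: Agtr1a (angiotensin II), Ednra and Ednrb (endothelins), Adra1b and Adra1d (noradrenaline and adrenaline), Avpr1a (vasopressin), Htr2a and Htr1b (serotonin) and Npr3 (natriuretic peptides). These genes were chosen with earlier results of the same data known, so counts of them set beside those of all genes are descriptions only. All 9 were found by symbol among the 32623 genes measured by RNA-seq. Libraries were made from wild-type rat primary aortic vascular smooth muscle cells at passages 4 to 8, with 3 libraries in each of 3 groups. Every group was grown in 20% serum, kept without serum for 12 h and then held in 2% serum during treatment. Control cells were given DMSO as vehicle. In the PDGF-BB group, cells were exposed for 24 h to the platelet-derived growth factor dimer BB, which stimulates smooth muscle proliferation, at 10 ng/mL according to the sample labels and 20 ng/mL according to the series design. The PDGF-BB+PTUPB group was first given 0.5 µM PTUPB for 2 h and then the same growth factor. Both the inducible cyclooxygenase and soluble epoxide hydrolase, which act on arachidonic acid and its products, are inhibited by PTUPB. The question posed by the design is how PTUPB alters the response of these cells to PDGF-BB. Whether replicates were separate cultures or animals is not stated in the labels. The p-values therefore set group differences against no more than the variation among these libraries, part or all of which may be technical.

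Angiotensin, endothelin, vasopressin, catecholamine and serotonin receptors on smooth muscle are G protein-coupled receptors. Agtr1a, both endothelin receptors, the alpha-1 adrenoceptors, Avpr1a and Htr2a couple mainly to Gq, which activates phospholipase C, releases calcium from internal stores and drives contraction, whereas Htr1b couples to Gi and lowers cyclic AMP. Npr3 is of another kind: it has no guanylyl cyclase domain and is best known for clearing natriuretic peptides from the circulation.

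Library totals ran from 12729187 to 16911050 counts, so that 3 counts in a library were worth 0.177 to 0.236 CPM, the count scaled to library size. Control replicate 2 and PDGF-BB replicate 3 lay apart from the other 7 libraries on the second principal component, which held 13.6% of the variance, and both showed lower readings of long genes relative to their companions. Results that rest on either library are given with and without it. Of 10 smooth muscle markers 8 reached the level required for testing, and their summed level was 1744 to 2535 FPKM (fragments scaled to exonic length and library size) over the 9 libraries, while Des and Actg2 stayed under 1 FPKM. Tagln and Acta2 were the largest parts of this sum, at 1299 and 659 FPKM in Control, whereas Myh11 had group means of 3.05 to 5.99 FPKM. Markers of adventitial fibroblasts, described below, were also present, with a summed level of 664 to 1733 FPKM over the 9 libraries. Endothelial markers were nearly absent: 8 of the 9 present in the file lay under 1 FPKM in every library, Cdh5, Tie1, Kdr, Emcn and Cldn5 had no count at all, and only Egfl7 lay above. Schwann cell markers all lay under 1 FPKM. Macrophage markers lay under 1 FPKM in 7 of 8 cases, with 4 at 0 counts. Of 5 pericyte markers, Rgs5 and Higd1b were at 0, while Kcnj8, Abcc9 and Cspg4 were present at group means of 2.36 to 6.4 FPKM. With PDGF-BB Cspg4 rose from 3.02 to 6.4 FPKM (log2 change 1.01, edgeR adjusted p = 0.00362), and Kcnj8 (-0.53, edgeR adjusted p = 0.0219) and Abcc9 (-0.59, edgeR adjusted p = 0.0424) fell, the latter calls being kept in 14 and 8 of 19 alternatives. The Kcnj8 call was lost without Control replicate 2 or PDGF-BB replicate 2 or 3. The Abcc9 call was lost without Control replicate 1 or 2, PDGF-BB replicate 2 or 3, or PDGF-BB+PTUPB replicate 2 or 3 (up to 0.133).

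Levels between receptors were compared per length, as FPKM. Averaged over a group, 6 of the 9 receptors reached 1 FPKM in at least 1 group and were taken as expressed: Agtr1a, Npr3, Ednrb, Htr2a, Avpr1a and Htr1b. All 6 were at or above 1 FPKM in all 9 libraries. Ednra lay just under the limit at 0.993 ± 0.648 FPKM in Control (mean ± SD, n = 3 libraries, as for every mean here), and passed 1 FPKM only in Control replicate 2. Without Control replicate 1 or 3 it counted as expressed, which made 7 receptors. Adra1d reached at most 0.490 ± 0.0954 FPKM as a group mean, and Adra1b at most 0.0433 ± 0.0404 FPKM.

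Agtr1a (ENSRNOG00000018346) was by far the most abundant receptor transcript. In Control cells it stood at 263 ± 3.15 FPKM, 3.53 times the level of Npr3, and only 255 of the 11197 tested genes had a higher mean. Below it came Npr3 (74.4 ± 9.36 FPKM), Ednrb (38.6 ± 5.69 FPKM), Htr2a (22.8 ± 1.02 FPKM), Avpr1a (11.5 ± 1.92 FPKM) and Htr1b (1.92 ± 0.933 FPKM). No neighbours in this Control order overlapped between libraries except Htr1b and Ednra. With PDGF-BB the order from the third place down became Avpr1a (16.9 ± 0.365 FPKM), Htr2a (15.4 ± 5.75 FPKM) and Ednrb (13.9 ± 3.18 FPKM), and the ranges of Avpr1a and Htr2a and of Htr2a and Ednrb overlapped, so these places are not distinguished by the libraries. With PDGF-BB+PTUPB the order of the 6 expressed receptors was that of Control, with Ednrb (26.5 ± 5.63 FPKM) and Htr2a (19.8 ± 4.35 FPKM) overlapping. Agtr1a led in each group, at 238 ± 14.8 FPKM with PDGF-BB and 277 ± 3.65 FPKM with PDGF-BB+PTUPB. In each library Ednrb made up 93.3% to 98.7% of the summed FPKM of the endothelin receptor pair.

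**Figure D1:**
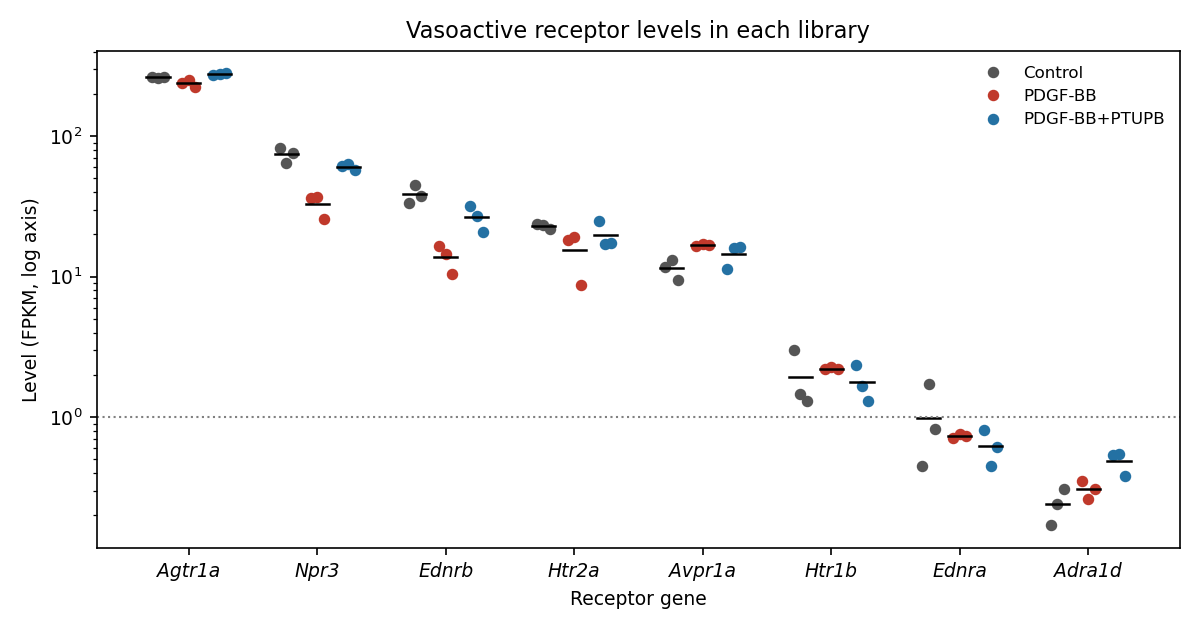
Level of 8 receptors in each of the 9 libraries, in FPKM on a log axis, with points for libraries coloured by group, bars for group means and a dotted line at 1 FPKM; Adra1b, which had libraries at 0, is left out. Agtr1a stands above every other receptor in all 3 groups, and the PDGF-BB points of Npr3 and Ednrb lie below those of both other groups.

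The upstream sequences of the 4 receptors called in PDGF-BB against Control are shown because 3 of them moved together and the other moved the opposite way. Of these calls, that of Agtr1a was lost in 13 and that of Avpr1a in 5 of 19 alternatives. They are the 250 bases before the start of each gene in RefSeq on build GRCr8, read 5′ to 3′ on the gene's own strand, and capitals mark matches to any of 6 motifs searched on both strands: the TATA box TATAAA, the CAAT box CCAAT, the GC box GGGCGG, the E-box CANNTG, the binding sequence of AP-1 factors TGANTCA and the CArG box bound by serum response factor. Promoter entries were matched for 8 of the 9 receptors, all but Htr2a. Npr3 lies at chr2:62658766-62659015 (minus strand), Ednrb at chr15:87086766-87087015 (minus), Agtr1a at chr17:34435433-34435682 (minus) and Avpr1a at chr7:59999493-59999742 (plus).
Npr3: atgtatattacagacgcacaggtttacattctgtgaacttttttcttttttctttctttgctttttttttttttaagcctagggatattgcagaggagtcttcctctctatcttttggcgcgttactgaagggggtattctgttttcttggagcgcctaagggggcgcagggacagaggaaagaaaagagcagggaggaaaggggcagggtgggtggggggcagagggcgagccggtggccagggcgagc
Ednrb: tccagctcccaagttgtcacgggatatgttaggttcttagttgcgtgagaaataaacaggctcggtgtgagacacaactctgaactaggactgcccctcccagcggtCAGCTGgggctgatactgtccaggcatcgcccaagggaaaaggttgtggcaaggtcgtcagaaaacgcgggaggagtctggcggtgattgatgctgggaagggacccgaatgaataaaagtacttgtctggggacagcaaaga
Agtr1a: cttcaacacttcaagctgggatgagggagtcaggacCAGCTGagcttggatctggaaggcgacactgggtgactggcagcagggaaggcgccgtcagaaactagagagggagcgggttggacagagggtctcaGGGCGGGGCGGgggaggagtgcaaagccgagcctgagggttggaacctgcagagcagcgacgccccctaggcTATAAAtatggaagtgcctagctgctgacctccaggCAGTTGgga
Avpr1a: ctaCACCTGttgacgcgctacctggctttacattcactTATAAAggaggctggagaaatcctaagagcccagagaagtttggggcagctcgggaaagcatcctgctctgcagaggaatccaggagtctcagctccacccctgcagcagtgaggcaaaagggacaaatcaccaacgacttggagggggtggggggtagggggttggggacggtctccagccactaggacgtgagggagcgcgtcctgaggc
The Npr3 window held none of the 6 motifs, and the Ednrb window held a single CANNTG match, with the letters CAGCTG, 143 to 138 bases before the start. Agtr1a had a TATAAA match 45 to 40 bases before the start, 2 GGGCGG matches that overlap by their last and first base (117 to 112 and 112 to 107), and 2 CANNTG matches. Avpr1a had TATAAA at 212 to 207 bases and CACCTG at 247 to 242 bases before the start. These motifs are common: of 33469 promoter windows of this length, 12.9% held TATAAA, 30.5% GGGCGG, 34.0% CCAAT and 65.5% CANNTG, against 6.34% for TGANTCA and 1.5% for the CArG box, neither of which was found in any of the 8 receptor windows. GC content was 49.6% for Npr3, 53.2% for Ednrb, 58.0% for Avpr1a and 60.8% for Agtr1a, beside a median of 51.2% over all windows. The matches are descriptions of the letters only, and the 3 receptors that moved together had no searched motif in common.

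In PDGF-BB cells Npr3, Ednrb and Agtr1a were lower than in Control and Avpr1a was higher, so that 4 of the 6 tested receptors changed (edgeR, quasi-likelihood F test, adjusted p under 0.05 by Benjamini and Hochberg). Of all 11197 tested genes 33.2% changed in this comparison, 17.3% upward and 15.8% downward. The groups did not overlap in 5 of the 6 receptors, beside 44.6% of all tested genes. The median log2 change of the 6 receptors was -0.43, and that of all tested genes -0.02. Only the changes of Npr3 and Ednrb exceeded 2-fold. Receptor levels below are in CPM, scaled for library size and composition, since they compare a gene with itself. In bulk RNA, fewer cells of a type and less RNA per cell cannot be told apart.

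Npr3 (ENSRNOG00000019184), the clearance receptor, read 176, 132 and 159 CPM in Control replicates 1 to 3 and 72.6, 72.1 and 51.7 CPM in PDGF-BB replicates 1 to 3. In PDGF-BB+PTUPB replicates 1 to 3 it read 125, 131 and 118 CPM. Every PDGF-BB library lay below every library of both other groups, and the PDGF-BB+PTUPB libraries lay just below the lowest Control library. Npr3 fell 2.38-fold with PDGF-BB (log2 change -1.25 ± 0.14 SE, edgeR adjusted p = 0.000149) and was 1.9-fold higher with PDGF-BB+PTUPB than with PDGF-BB alone (0.93 ± 0.14, edgeR adjusted p = 0.00255). Both calls held in all 19 alternative analyses, with adjusted p of at most 0.0024 and 0.0143. PDGF-BB replicate 3 was the lowest library, and without it the log2 changes were -1.10 and 0.78.

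Ednrb (ENSRNOG00000010997), the endothelin receptor that binds the endothelin isopeptides with similar affinity, read 69.2, 89.6 and 76.8 CPM in Control replicates 1 to 3. The PDGF-BB libraries were at 32.4, 27.9 and 20.3 CPM, and the PDGF-BB+PTUPB libraries at 64.2, 53.9 and 41.4 CPM. The 3 groups formed separate ranges, Control highest and PDGF-BB lowest. Ednrb fell 2.92-fold with PDGF-BB (log2 change -1.55 ± 0.20, edgeR adjusted p = 0.000268), the largest change among the 6 tested receptors, and was 1.98-fold higher with PDGF-BB+PTUPB than with PDGF-BB (0.98 ± 0.19, edgeR adjusted p = 0.00775). Both calls held in all 19 alternatives, with adjusted p of at most 0.00205 and 0.0366. Here too PDGF-BB replicate 3 was lowest, and the log2 changes without it were -1.38 and 0.82.

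Agtr1a, the main angiotensin II receptor of rat artery, changed little in relative terms, though from a high level. Its libraries read 600, 569 and 592 CPM in Control, 509, 530 and 476 CPM with PDGF-BB, and 599, 608 and 612 CPM with PDGF-BB+PTUPB, in the order of their replicate numbers. The PDGF-BB libraries again lay below all others, and the other groups overlapped. Agtr1a was 1.16-fold lower with PDGF-BB (log2 change -0.22 ± 0.07, edgeR adjusted p = 0.0329) and 1.2-fold higher with PDGF-BB+PTUPB than with PDGF-BB (0.26 ± 0.07, edgeR adjusted p = 0.0243). These calls depended on the analysis. The decrease was lost in 13 of 19 alternatives, among them scaling by library totals (-0.15, adjusted p = 0.123), limma on log2(FPKM + 1) (0.117), the fit of the 6 libraries alone (0.146), and the removal of any single library except Control replicate 2 (0.0222) and PDGF-BB replicate 2. The increase was lost in 5, without PDGF-BB replicate 1 (0.0688), without any 1 of the PDGF-BB+PTUPB replicates (0.0728 to 0.0855), and in the fit that takes the replicate number as a block (0.0594). Agtr1b, the near copy of Agtr1a, had 0 counts in all 9 libraries, and how reads that match both were counted is not given in the sources used here.

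Avpr1a (ENSRNOG00000004400), the vascular vasopressin receptor, was the receptor that rose. Control libraries stood at 23.2, 25.2 and 18.3 CPM and PDGF-BB libraries at 30.6, 31.4 and 31.5 CPM, with no overlap. The rise was 1.40-fold (log2 change 0.49 ± 0.15, edgeR adjusted p = 0.0319). It was lost in 5 of 19 alternatives, without Control replicate 1 (0.0604) or 3 (0.115) or any 1 of the PDGF-BB replicates (0.0593 to 0.0658). PDGF-BB+PTUPB libraries were split, with replicate 1 at 21.7 CPM inside the Control range and replicates 2 and 3 at 30.5 and 31.0 CPM beside the PDGF-BB libraries. The difference from PDGF-BB was not called (-0.17 ± 0.15, edgeR adjusted p = 0.476), and neither was that from Control (0.32 ± 0.15, edgeR adjusted p = 0.395).

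Neither Htr2a nor Htr1b, the serotonin receptors of the set, passed the test in any of the 3 comparisons. Htr2a (ENSRNOG00000010063), which mediates serotonin-induced contraction, read 113, 108 and 103 CPM in Control, 82.6, 85.3 and 39.8 CPM with PDGF-BB, and 115, 79.9 and 80.0 CPM with PDGF-BB+PTUPB. Control and PDGF-BB did not overlap, but 1 library, PDGF-BB replicate 3, was well below its companions. The log2 change was -0.64 ± 0.25 (edgeR adjusted p = 0.0731) and came to -0.36 without that library (0.0922), while DESeq2 (0.0306) and the fit with the replicate number as a block (0.0344) called it. Against PDGF-BB the PDGF-BB+PTUPB value was 0.40 ± 0.25 (edgeR adjusted p = 0.298), and 0.13 without PDGF-BB replicate 3. Htr1b (ENSRNOG00000013042), the Gi-coupled receptor, was low: 4.78, 2.26 and 2.05 CPM in Control, 3.31, 3.34 and 3.32 CPM with PDGF-BB, and 3.63, 2.58 and 2.00 CPM with PDGF-BB+PTUPB. All 3 groups overlapped, the log2 values were 0.15 ± 0.34 for PDGF-BB against Control and -0.28 ± 0.34 for PDGF-BB+PTUPB against PDGF-BB (edgeR adjusted p = 0.77 and 0.616), and the sign of the former turned without Control replicate 2 (-0.03) or 3 (-0.07).

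The remaining receptors were under the level required for testing and were fitted without the filter. Ednra (ENSRNOG00000012721), the endothelin receptor usually assigned to contraction, had 32, 147 and 64 counts in Control, 46, 50 and 49 with PDGF-BB, and 57, 38 and 42 with PDGF-BB+PTUPB. Control replicate 2 stood far above all other libraries. The log2 value for PDGF-BB against Control was -0.50 ± 0.37 (edgeR adjusted p = 0.395), and it turned to 0.16 without Control replicate 2. Adra1d (ENSRNOG00000021256), an alpha-1 adrenoceptor of large arteries, had 7, 12 and 14 counts in Control, 13, 10 and 12 with PDGF-BB, and 22, 27 and 15 with PDGF-BB+PTUPB. Its PDGF-BB+PTUPB libraries lay above those of both other groups, but the differences did not pass (0.71 ± 0.37 against PDGF-BB and 0.99 ± 0.38 against Control, edgeR adjusted p = 0.283 and 0.334). Adra1b (ENSRNOG00000060087) had 0 to 3 counts in each library and 9 in all, at or under the floor of 3 counts, so no fold is given. At this depth no difference in Adra1b was detectable.

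**Figure D2:**
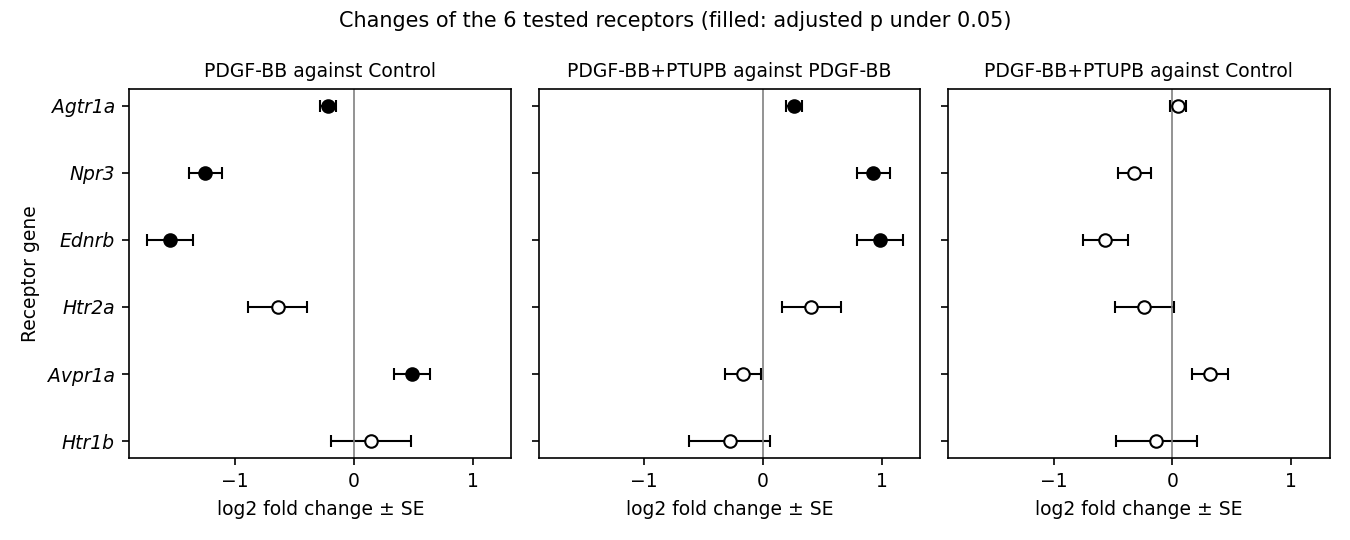
Log2 fold change of the 6 tested receptors in each of the 3 comparisons, with bars for the standard error derived from the edgeR F statistic and filled points for an adjusted p under 0.05. Npr3, Ednrb and Agtr1a are filled on the negative side in the left panel and on the positive side in the middle panel, Avpr1a is filled in the left panel only, and no point is filled in the right panel.

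In PDGF-BB+PTUPB against PDGF-BB, 3 of the 6 tested receptors were higher (Npr3, Ednrb and Agtr1a) and 0 lower, beside 8.28% of all tested genes higher and 10.0% lower (18.3% changed in all). Groups did not overlap in 3 receptors, beside 40.7% of all tested genes. The median log2 change was 0.33 for the 6 receptors and 0.01 for all tested genes. This comparison and that of PDGF-BB with Control share the PDGF-BB libraries, with opposite sign, so a PDGF-BB library that reads low for a gene adds to the size of both differences. For Npr3 the PDGF-BB+PTUPB mean was 125 ± 6.75 CPM, between 65.5 ± 11.9 CPM with PDGF-BB and 156 ± 22.0 CPM in Control. For Ednrb the corresponding means were 53.1 ± 11.4, 26.9 ± 6.14 and 78.5 ± 10.3 CPM.

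Between PDGF-BB+PTUPB and Control 0 of the 6 tested receptors were called by edgeR, beside 2.21% of all tested genes (1.89% higher and 0.313% lower). DESeq2 and limma on log2(FPKM + 1) also called 0. At an unadjusted p under 0.05 there were 2, Ednrb and Npr3. Their log2 values were -0.56 ± 0.19 (edgeR adjusted p = 0.213) and -0.32 ± 0.14 (edgeR adjusted p = 0.347). Both had groups that did not overlap, which was also seen in 21.5% of all tested genes. Npr3 passed once Control replicate 2 and PDGF-BB replicate 3 were both left out (-0.42, edgeR adjusted p = 0.00476), so these data do not show that the receptor levels in the PDGF-BB+PTUPB cells equalled those of Control. For Agtr1a the log2 value was 0.05 ± 0.07 (edgeR adjusted p = 0.829).

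**Figure D3:**
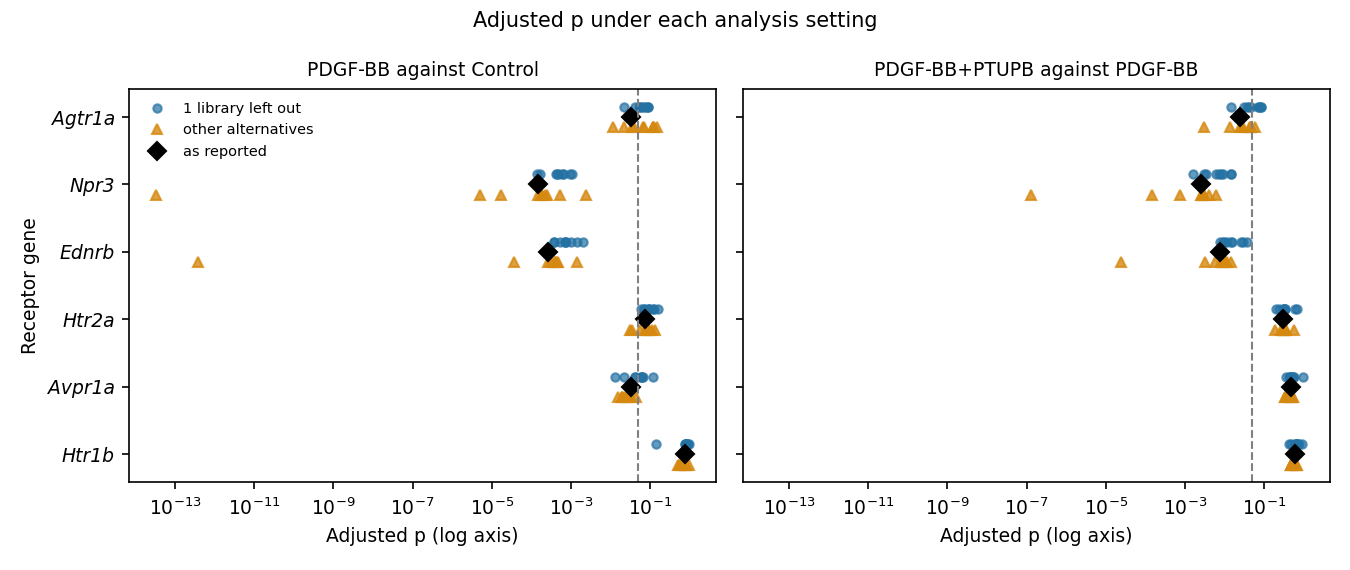
Adjusted p of the 6 tested receptors on a log axis for PDGF-BB against Control (left) and PDGF-BB+PTUPB against PDGF-BB (right), with diamonds for the reported analysis, circles for analyses that leave out 1 library, triangles for the other alternatives and a dashed line at 0.05. All symbols of Npr3 and Ednrb lie left of the line in both panels, whereas those of Agtr1a lie on both sides in both panels and those of Avpr1a and Htr2a lie on both sides in the left panel.

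Over the 9 libraries the log2 CPM of Npr3 and Ednrb had a Pearson correlation of 0.927, and that of Npr3 and Agtr1a 0.913. Htr2a followed Ednrb at 0.830, and Avpr1a ran against Ednrb at -0.760. Htr1b followed none of them, with values from -0.271 to 0.041. These correlations are descriptions, since the libraries fall into 3 treatment groups. Among tested genes with a named symbol, those whose profiles were most like that of Npr3 were Lifr (0.995), the receptor for leukaemia inhibitory factor, at 49.9, 10.4 and 34.4 CPM in Control, PDGF-BB and PDGF-BB+PTUPB, the hedgehog receptor gene Ptch1 (0.993) at 128, 72.2 and 116 CPM, and Tshz2 (0.989). Nearest to Ednrb were Pdgfra (0.995), the PDGF receptor alpha gene, at 1770 ± 140 CPM in Control, 904 ± 119 CPM with PDGF-BB and 1381 ± 219 CPM with PDGF-BB+PTUPB, followed by Map4k3 (0.995) and Sash1 (0.987). Nearest to Avpr1a were Dlgap1 (0.948), Glod4 (0.940) and Fbxl2 (0.937).

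Pdgfra is also 1 of 8 markers of adventitial fibroblasts that were examined, and 7 of these were measured well enough to be tested. Their summed level was 1117 to 1733 FPKM in Control, 664 to 993 FPKM with PDGF-BB and 1115 to 1297 FPKM with PDGF-BB+PTUPB. Of the 7, 5 were lower with PDGF-BB than in Control, and 5 were higher with PDGF-BB+PTUPB than with PDGF-BB (edgeR). Of all tested genes 15.8% were lower and 8.28% higher in these comparisons. Lum, the largest part of the sum, was at 671, 522 and 614 FPKM in Control, PDGF-BB and PDGF-BB+PTUPB. Pi16 stayed nearly level, at 3.14, 2.92 and 3.16 FPKM. The marker Dpt lay under 1 FPKM in every library. The summed level of this list moved in the same direction as Npr3 and Ednrb, and its part in their changes was not tested. Of the 8 tested smooth muscle markers 4 fell with PDGF-BB and 1 rose, beside 15.8% and 17.3% of all tested genes. Acta2 (smooth muscle actin) fell with PDGF-BB from 939 ± 175 to 650 ± 54.0 CPM (-0.53 ± 0.13, edgeR adjusted p = 0.00898) and Myh11 (smooth muscle myosin) from 41.0 ± 5.41 to 19.9 ± 3.53 CPM (-1.04 ± 0.14, edgeR adjusted p = 0.000326). The myosin light chain kinase gene Mylk fell as well (-0.99, edgeR adjusted p = 7.56e-05), as did Lmod1 (-0.40, edgeR adjusted p = 0.0397), whose call was kept in 8 of 19 alternatives and in single removals only without Control replicate 2, PDGF-BB replicate 3 or PDGF-BB+PTUPB replicate 3. Synpo2 rose from 2.15 to 3.21 FPKM (0.51, edgeR adjusted p = 0.0175), a call lost without Control replicate 1 (0.0515) and with Control replicate 2 and PDGF-BB replicate 3 both left out. The other 3 did not pass, with group means in Control and PDGF-BB of 1299 and 1658 FPKM for Tagln, 65.2 and 85.6 FPKM for Cnn1 and 37.8 and 39.7 FPKM for Smtn. In PDGF-BB+PTUPB against PDGF-BB 2 of the 8 were higher and 0 lower, beside 8.28% and 10.0% of all tested genes. The 2 were Mylk (0.71, edgeR adjusted p = 0.00197) and Myh11. With PDGF-BB+PTUPB Acta2 and Myh11 stood at 787 ± 40.6 and 29.0 ± 1.2 CPM, and of the pair only Myh11 passed against PDGF-BB (0.54 ± 0.14, edgeR adjusted p = 0.021), a call lost in analyses without PDGF-BB replicate 2 or 3 or PDGF-BB+PTUPB replicate 1 or 2 (up to 0.0839).

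Most other receptors for vasoactive hormones and amines were low or not detected. Of 40 genes of this list in the file 10 were tested and 13 had 0 counts in all libraries, among them the adrenoceptor genes Adra1a, Adra2c, Adrb1 and Adrb3, the oxytocin receptor gene Oxtr, the apelin receptor gene Aplnr, the urotensin receptor gene Uts2r and the muscarinic receptor gene Chrm3. The list includes Ramp1, Ramp2 and Ramp3, whose products are accessory proteins of receptors and not receptors themselves. Ramp2 and Ramp3 were among the 10 tested, Ramp3 at 133 to 170 FPKM as group means. Neither passed in any comparison. Of the natriuretic peptide receptors with a guanylyl cyclase domain, Npr1 stayed near the limit, at 0.783 to 1.07 FPKM as group means, whereas Npr2, which binds C-type natriuretic peptide, was at 177 ± 9.81 CPM in Control. With PDGF-BB 5 of the 10 fell and 1 rose, beside 15.8% and 17.3% of all tested genes, with a median log2 change of -0.43. Npr2 fell to 101 ± 1.71 CPM (-0.81 ± 0.07, edgeR adjusted p = 2.46e-05), Htr2b, a Gq-coupled serotonin receptor gene, from 7.99 ± 2.99 to 2.39 ± 0.313 CPM (-1.74 ± 0.28), Drd1, a dopamine receptor gene, from 7.08 ± 1.30 to 2.40 ± 0.412 CPM (-1.56 ± 0.24), and Adora2a, an adenosine receptor gene, from 9.0 ± 0.624 to 3.83 ± 0.674 CPM (-1.23 ± 0.19). The kinin receptors parted: Bdkrb1 fell (-0.64 ± 0.13) and Bdkrb2 rose from 11.1 ± 1.25 to 20.4 ± 4.48 CPM (0.89 ± 0.18, edgeR adjusted p = 0.00421).

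In PDGF-BB+PTUPB against PDGF-BB 4 of these 10 genes rose and 1 fell, beside 8.28% and 10.0% of all tested genes, with a median of 0.16. Npr2 (0.59 ± 0.07), Htr2b (1.54 ± 0.28), Drd1 (1.58 ± 0.24) and Adora2a (0.87 ± 0.19) were higher, and Bdkrb2 was lower, at 9.44 ± 1.77 CPM (-1.12 ± 0.18, edgeR adjusted p = 0.0035). The Adora2a call was lost without PDGF-BB+PTUPB replicate 1 (edgeR adjusted p = 0.0568), and the other 4 held in all 19 alternatives. Against Control edgeR called 0 of the 10 (2 at an unadjusted p under 0.05, 0 by DESeq2 and 0 by limma).

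Among 33 genes of ligands, of enzymes that make or degrade them and of transporters, 16 were tested. The transporter genes are Slc6a4, which was tested, and Slc22a3, which was not. Slc6a4 is among the genes counted below as higher with PDGF-BB+PTUPB than with PDGF-BB (0.51 ± 0.16, edgeR adjusted p = 0.0473). Agt (angiotensinogen), Ace (angiotensin-converting enzyme), the natriuretic peptide genes Nppa, Nppb and Nppc and Avp (vasopressin) all had group means under 1 FPKM. Apln, which encodes the peptide apelin, was present and fell with PDGF-BB from 155 ± 24.4 to 91.3 ± 10.9 CPM (-0.76 ± 0.12, edgeR adjusted p = 0.00107), and was at 145 ± 4.71 CPM with PDGF-BB+PTUPB (0.67 ± 0.12 above PDGF-BB, edgeR adjusted p = 0.00543). Kng1, the kininogen gene, fell from 7.67 ± 1.99 to 1.16 ± 0.121 CPM (-2.72 ± 0.38, edgeR adjusted p = 0.00049). With PDGF-BB+PTUPB it was at 3.17 ± 1.47 CPM (1.45 ± 0.39 above PDGF-BB, edgeR adjusted p = 0.0293), a call lost without any 1 PDGF-BB library or PDGF-BB+PTUPB replicate 1 or 2 (up to 0.106). That call was kept in only 11 of 19 alternatives. Edn1, which encodes the endothelin that acts on Ednra and Ednrb, was expressed and fell with PDGF-BB from 19.5 ± 5.90 to 5.55 ± 0.941 CPM (-1.81 ± 0.24, edgeR adjusted p = 0.000391), and stood at 12.6 ± 1.95 CPM with PDGF-BB+PTUPB (1.18 ± 0.24 above PDGF-BB, edgeR adjusted p = 0.00942). Maoa, the monoamine oxidase that degrades serotonin and noradrenaline, went from 690 ± 32.4 to 360 ± 24.8 CPM (-0.94 ± 0.08) and was at 677 ± 30.8 CPM with PDGF-BB+PTUPB (0.91 ± 0.08). Ctsa, a lysosomal carboxypeptidase that can process angiotensin and endothelin peptides, followed the same course (-0.68 ± 0.09 and 0.52 ± 0.09). Prcp, a carboxypeptidase that cleaves angiotensin II, moved the opposite way, from 40.7 ± 3.62 to 81.5 ± 9.28 CPM (1.00 ± 0.10) and then 53.8 ± 1.17 CPM (-0.60 ± 0.10). In all, 9 of the 16 fell and 1 rose with PDGF-BB (median -0.44), and 8 were higher and 1 lower with PDGF-BB+PTUPB than with PDGF-BB (median 0.40). Over all tested genes 15.8% fell and 17.3% rose with PDGF-BB, and 8.28% were higher and 10.0% lower with PDGF-BB+PTUPB. Against Control edgeR called 0 of the 16, DESeq2 4 and limma 0, with 10 at an unadjusted p under 0.05.

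Genes of G protein and calcium signalling act downstream of these receptors. Of 25 tested genes (29 listed) 3 rose and 4 fell with PDGF-BB, beside 17.3% higher and 15.8% lower of all tested genes. The median log2 change of the list was -0.12. Itpr2, a calcium release channel opened by inositol trisphosphate, fell from 26.9 ± 6.35 to 9.83 ± 2.24 CPM (-1.45 ± 0.21, edgeR adjusted p = 0.000569), and the adenylyl cyclase gene Adcy5 (-0.60 ± 0.09), the guanine nucleotide exchange factor gene Arhgef11 (-0.49 ± 0.10) and the phospholipase C gene Plcb4 (-0.76 ± 0.26, edgeR adjusted p = 0.045) fell as well. The genes that rose were Rhoa, encoding the small GTPase of calcium sensitisation (0.32 ± 0.07), the Gi subunit gene Gnai2 (0.30 ± 0.08) and the adenylyl cyclase gene Adcy3 (0.45 ± 0.12). The Plcb4 call was kept in only 8 of 19 alternatives, was lost without any 1 library except PDGF-BB replicate 2 or 3, and reached an edgeR adjusted p of 0.134 without Control replicate 1. In PDGF-BB+PTUPB against PDGF-BB Itpr2 (0.91 ± 0.21), Adcy5 (0.35 ± 0.09) and Arhgef11 (0.45 ± 0.10) were higher and the protein kinase C gene Prkca was lower (-0.57 ± 0.11). Of all tested genes 8.28% were higher and 10.0% lower, and the median over the list was 0.01. Without PDGF-BB+PTUPB replicate 1 the calls of Itpr2 (edgeR adjusted p = 0.0639), Adcy5 (0.0941) and Arhgef11 (0.0672) were lost. For Adcy5 the call was also lost without PDGF-BB replicate 1 or 2 or PDGF-BB+PTUPB replicate 2, and for Arhgef11 without PDGF-BB replicate 1 or PDGF-BB+PTUPB replicate 2. The Adcy5 call was kept in only 11 of 19 alternatives, being lost as well with limma, without the filter and with the replicate block. Against Control 0 were called by edgeR, DESeq2 or limma, with 5 at an unadjusted p under 0.05.

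Genes that switch receptors off moved in both directions. Of 14 tested genes of receptor desensitisation 4 rose and 4 fell with PDGF-BB (median 0.01), beside 17.3% and 15.8% of all tested genes. The receptor kinase gene Grk5 fell from 172 to 114 CPM (-0.59 ± 0.11, edgeR adjusted p = 0.00246) while Grk6, another kinase of the family, rose from 39.3 to 54.9 CPM (0.48 ± 0.10, edgeR adjusted p = 0.00364). Agtrap, whose product binds the angiotensin receptor and promotes its internalisation, fell from 98.8 to 72.7 CPM (-0.44 ± 0.09, edgeR adjusted p = 0.0043), as did the scaffold gene Slc9a3r1 (-0.52 ± 0.09) and the G protein regulator gene Rgs7 (-1.39 ± 0.27). Rgs16 (1.12 ± 0.30), Rgs3 (0.22 ± 0.08) and Rgs10 (0.33 ± 0.11) rose. The calls of Rgs3 and Rgs10 were each kept in only 7 of 19 alternatives, which among single removals were those without PDGF-BB replicate 2 for Rgs3 and without Control replicate 2 for Rgs10 (edgeR adjusted p up to 0.131 and 0.151 otherwise), and that of Rgs16 was lost when Control replicate 2 and PDGF-BB replicate 3 were both left out. Rgs5, a regulator known from arterial smooth muscle and pericytes, had 0 counts.

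With PDGF-BB+PTUPB 4 of these 14 were higher than with PDGF-BB (Grk5 0.40 ± 0.11, Agtrap 0.33 ± 0.09, Slc9a3r1 0.31 ± 0.09 and Rgs7 1.16 ± 0.27) and Grk6 was lower (-0.45 ± 0.10). Of all tested genes 8.28% were higher and 10.0% lower, and the median of the 14 was 0.01. All but the Grk6 call were lost in at least 1 analysis that left out a library. The highest edgeR adjusted p were 0.115, 0.109 and 0.132 without PDGF-BB+PTUPB replicate 1 for Grk5, Agtrap and Slc9a3r1, and 0.0595 without PDGF-BB+PTUPB replicate 2 for Rgs7. Grk5 was also lost without any 1 PDGF-BB library or PDGF-BB+PTUPB replicate 3, and Agtrap and Slc9a3r1 without PDGF-BB replicate 1 or 2 or PDGF-BB+PTUPB replicate 2. Of 19 alternatives the calls were kept in 14 for Grk5, 13 for Agtrap, 14 for Slc9a3r1 and 18 for Rgs7. Against Control edgeR, DESeq2 and limma called 0, with 3 at an unadjusted p under 0.05.

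Of the cyclic GMP pathway, on which natriuretic peptides act through Npr1 and Npr2, only 5 of 15 genes in the file were tested. Gucy1a1 and Gucy1b1, the subunits of the nitric oxide receptor, lay under 1 FPKM as group means. With PDGF-BB 3 of the 5 fell and 1 rose (median -0.95), beside 15.8% and 17.3% of all tested genes. The phosphodiesterase gene Pde3a fell from 8.70 to 2.06 CPM (-2.07 ± 0.35, edgeR adjusted p = 0.00161) and the cyclic GMP phosphodiesterase gene Pde5a from 32.5 to 16.8 CPM (-0.95 ± 0.17, edgeR adjusted p = 0.00191). Mrvi1, whose product links cyclic GMP-dependent kinase to the calcium release channel, fell from 17.7 to 6.52 CPM (-1.43 ± 0.22, edgeR adjusted p = 0.000929). Pde1a rose (0.81 ± 0.28, edgeR adjusted p = 0.0475) but was kept in only 7 of 19 alternatives and, of the single removals, only without PDGF-BB replicate 3 (edgeR adjusted p up to 0.163 otherwise). With PDGF-BB+PTUPB Mrvi1 (0.82 ± 0.22, edgeR adjusted p = 0.0307) and Pde5a (0.66 ± 0.17, edgeR adjusted p = 0.0222) were higher than with PDGF-BB (median of the 5 genes 0.66), beside 8.28% of all tested genes. Both calls were lost without PDGF-BB+PTUPB replicate 1 or 2 (up to 0.121 and 0.0811), and that of Mrvi1 also without any 1 PDGF-BB library. The Mrvi1 call was kept in only 12 of 19 alternatives, being lost as well with limma, and that of Pde5a in 17. Pde3a did not pass (1.03 ± 0.36, edgeR adjusted p = 0.075). Against Control 0 were called by edgeR, DESeq2 or limma, with 2 at an unadjusted p under 0.05.

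**Figure D4:**
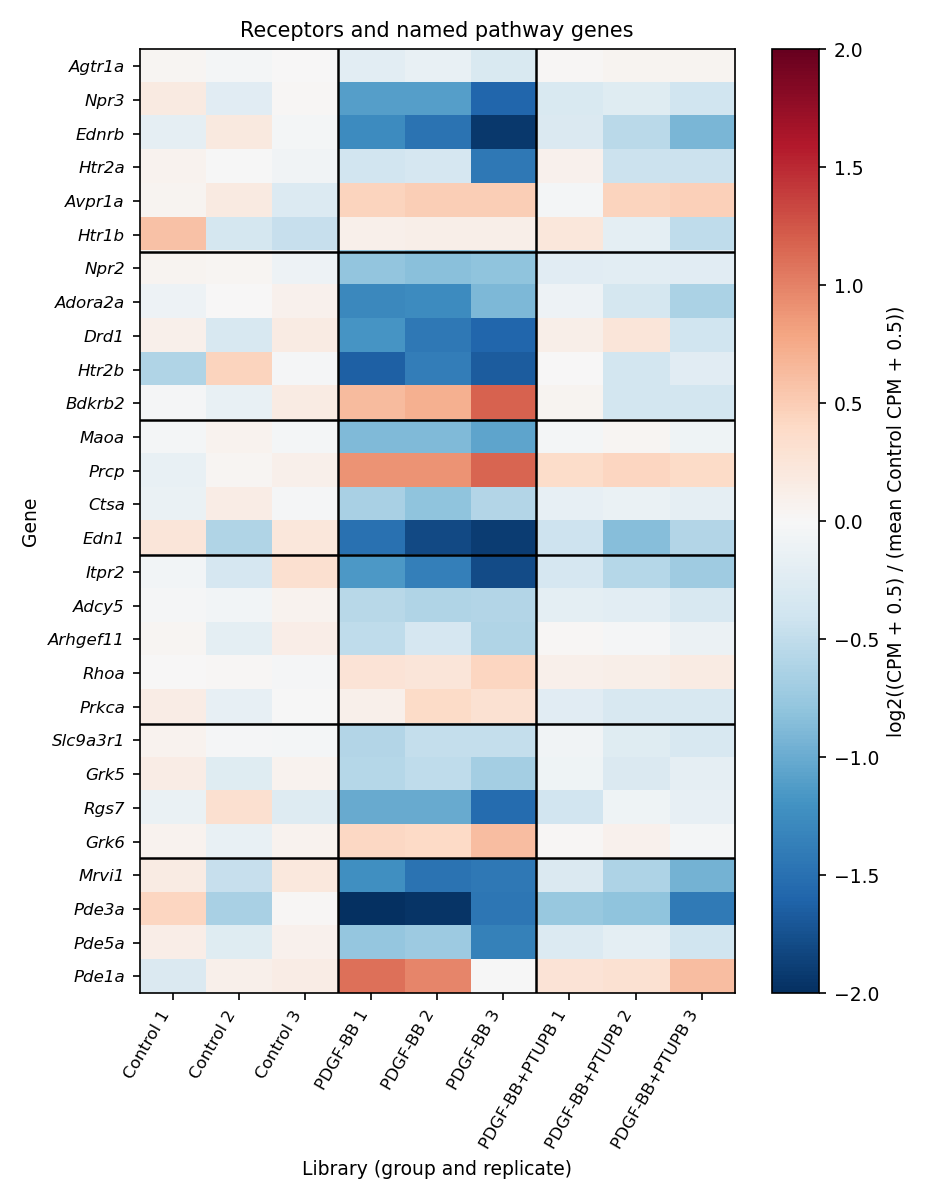
Level of the 6 tested receptors (top block) and of named genes of other receptors, ligands and enzymes, G protein signalling, desensitisation and cyclic GMP signalling (lower blocks) in each library, as log2 relative to the mean of Control, blue for lower and red for higher, with values beyond the ends of the scale given the end colour. The rows of Npr3, Ednrb, Npr2, Maoa and Edn1 are blue in the 3 PDGF-BB columns and paler in the PDGF-BB+PTUPB columns, while Avpr1a, Bdkrb2 and Prcp are red with PDGF-BB.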

How the data were processed

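Expression was measured by paired-end sequencing of poly(A) RNA from 9 libraries, grouped by the treatment in the sample labels. The submitters' processing notes name cutadapt 1.9.1, HISAT2 2.0.1, HTSeq 0.6.1 and the build mm10, a mouse build, whereas the gene identifiers in the file are those of rat. The strand used for counting is not given in the sources used here. The deposited table gives a count per gene and library, described as an expected count, and 978 of the 32623 genes, none of them among the 9 receptors, have values that are not whole. It also holds the FPKM deposited by the authors. FPKM recomputed for the receptors from count, exonic length and library total differed from the deposited values by at most 0.005.

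Expected counts were rounded and fitted with edgeR 4.0.16 in R 4.3.3 (TMM scaling; 1 quasi-likelihood model of all 9 libraries with a term for group alone and 6 residual degrees of freedom; two-sided F tests). Standard errors of edgeR log2 changes were derived from the test, as the absolute log2 change divided by the square root of the F statistic. Testing was limited to the 11197 genes that reached 1 FPKM in 3 or more of the 9 libraries, and p-values were adjusted over all of them. The quantity that edgeR names the biological coefficient of variation was 0.137, and part or all of it may be technical. Receptors under the filter were read from a fit of the 16832 genes with at least 1 count. The script was tested on simulated counts. Alternatives used other scalings, filters and tests (DESeq2 1.42.0, limma 3.58.1), other sets of libraries, and the replicate number as a block.

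The receptors, pathway lists, tests and alternatives were chosen with earlier results of these data known. Genes of a list were named by the 4 smallest p among those called in PDGF-BB against Control and the 3 smallest in PDGF-BB+PTUPB against PDGF-BB, with Acta2 and Myh11 always named. Bdkrb1, Gnai2, Adcy3, Plcb4, Rgs3, Rgs10, Rgs16 and Agtrap complete counts of 5 or fewer and were chosen after their values were seen, as were Apln, Kng1, the other smooth muscle and pericyte markers, and the genes listed at 0 or under 1 FPKM. Slc6a4, Slc22a3 and the Ramp genes were also named with their values known. Profiles similar to the 3 receptors of smallest p were ranked by Pearson correlation of log2 CPM among tested genes with a named symbol. No row was found under the symbols Htr7, Vipr1, Adrbk1, Adrbk2, Nherf1, Gucy1a3, Gucy1b3, Prkg1, Irag1 and Pecam1. Htr7, Vipr1, Prkg1 and Pecam1 were therefore not analysed here, while the others are alternative names of Grk2, Grk3, Slc9a3r1, Gucy1a1, Gucy1b1 and Mrvi1.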

Additional observations from a re-analysis of the deposited data

How the results depend on the processing

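The 24 changes of the receptors other than Adra1b were recomputed under the 19 alternatives, or 18 for Ednra and Adra1d. Of 450 values 417 kept their direction and their side of the threshold. The changes of Npr3 and Ednrb in PDGF-BB against Control and in PDGF-BB+PTUPB against PDGF-BB did so in all 19. The other receptor values that moved across the threshold stand beside their results. Signs turned only in values that passed in neither analysis. When 1 library was left out at a time, the log2 value of Ednra for PDGF-BB against Control ran from -0.834 to 0.158, that of Htr1b from -0.0683 to 0.620, that of Htr1b for PDGF-BB+PTUPB against Control from -0.384 to 0.341, that of Rgs10 for PDGF-BB+PTUPB against PDGF-BB from -0.0106 to 0.0963, and that of Abcc9 for the same comparison from -0.127 to 0.175. With both libraries that stand apart (Control 2 and PDGF-BB 3) left out, Ednra and Htr1b were at 0.123 and -0.028 for PDGF-BB against Control and Abcc9 at -0.128 for PDGF-BB+PTUPB against PDGF-BB, where library totals alone gave -0.0087. The causes were not tested.

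Leaving out 1 library at a time gave 2 to 4 receptors called for PDGF-BB against Control, 2 to 3 for PDGF-BB+PTUPB against PDGF-BB and 0 for PDGF-BB+PTUPB against Control, where leaving out both libraries that stand apart gave 1. Over all genes the same removals gave 2770 to 3902, 1002 to 2463 and 93 to 340 calls, beside 3714, 2048 and 247 with all libraries. For PDGF-BB+PTUPB against Control, DESeq2 called 444 genes and the removal of both libraries that stand apart gave 1345. Scaling by library totals alone changed the split for PDGF-BB against Control from 1942 higher and 1772 lower to 2410 and 1350, and for PDGF-BB+PTUPB against PDGF-BB from 927 and 1121 to 760 and 1414, with the median of all tested genes at 0.05 and -0.04. limma on log2(FPKM + 1) gave 2427 and 1283, and 728 and 1419. In the fit with the replicate block, 3294, 1602 and 168 genes and 4, 2 and 0 receptors were called. Deviations of libraries with the same number correlated between -0.238 and 0.177, and not every library correlated best with its own number, so the numbers were not taken as pairs. Whether libraries with the same number share anything else is not given in the sources used here.

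The receptors with few counts (Adra1b, Adra1d, Ednra and Htr1b) limit what this depth can show, and floors cover counting error only.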
